A study of Mus musculus with 27 samples.

Results

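Trimethylation of histone H3 at lysine 4 (H3K4me3) was compared at gene promoters between iPSCs and pre-iPSCs of the mouse, with 2 libraries of each. These are 4 of the 6 H3K4me3 libraries and of the 27 samples of the series, which also holds MEFs, H3, H3K27me3 and H3K9me3 libraries, and RNA-seq. MEFs are fibroblasts of e13.5 embryos that carried the Oct4-GFP transgene and the Rosa26 allele, both hemizygous. Pre-iPSCs, labelled as an intermediate stage of reprogramming, and iPSCs were derived from such MEFs with the retroviral Yamanaka factors. All 3 cell types therefore share these alleles and a mixed background (CBA/CaJ and C57BL/6J, crossed to 129Sv/Jae mothers). The pre-iPSCs came from 2 stable clones and the iPSCs from the corresponding lines, but which clone gave which library was not stated. Both were grown with LIF on a layer of inactivated MEFs, and the labels give 6 passages before RNA-seq.

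A promoter was taken as the 2001-bp window reaching 1000 bp to each side of the TSS listed for a gene. The value of a library at a promoter is the number of reads in the nucleosome calls whose dyad fell in that window. Reads printed are raw. Libraries were called above, below, overlapping or a fold apart on counts scaled to library size by TMM factors, with 2 reads added. Of 20156 promoters counted, 17645 held enough reads to be tested, and the other 2511 were not tested. Libraries titled as a repeat are called replicate 2.

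H3K4me3 is laid down by the Set1 and MLL methyltransferases on nucleosomes around active or poised start sites, and CpG-rich promoters tend to carry it even where the gene is silent. H3K27me3, the mark of Polycomb repressive complex 2, can share such promoters with H3K4me3 in pluripotent cells. Pre-iPSCs proliferate and have shut down much of the fibroblast programme, but have not switched on the endogenous pluripotency network that defines iPSCs. Germline genes are a further group known to be held silent in somatic cells, by DNA methylation and by a repressor complex that binds E-box and E2F-type sequences.

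Sequences of 6 promoters are given here because they carry the letters that recur in the germline group described further on, or belong to a called promoter or, for Zfp42, to a marker of pluripotency. Each run is the 250 bases just upstream of the listed TSS on mm9, written 5′ to 3′ on the strand of the gene, and capitals mark the letters named for that gene. In Stk31 (chr6:49345353-49345602, + strand), Tex12 (chr9:50369374-50369623, − strand), Sycp3 (chr10:87922082-87922331, + strand) and Hormad1 (chr3:95363349-95363598, + strand), all meiosis or spermatogenesis genes, the capitals mark the E-box CACGTG and, in the last 3, the E2F-type sequence TTCCCGC on the opposite strand. In Zfp42 (chr8:44392364-44392613, − strand) they mark the octamer ATGCAAAT and the Klf-type sequence GGGTGTGG, both on the opposite strand. In 2410137M14Rik (chr17:37118183-37118432, − strand), a called loss, they mark TATAAA on the opposite strand.
Stk31: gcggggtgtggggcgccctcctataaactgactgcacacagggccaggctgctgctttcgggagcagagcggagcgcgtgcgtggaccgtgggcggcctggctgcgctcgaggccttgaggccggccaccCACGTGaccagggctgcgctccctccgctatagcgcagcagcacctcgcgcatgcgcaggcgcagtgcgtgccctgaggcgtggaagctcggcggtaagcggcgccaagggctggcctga
Tex12: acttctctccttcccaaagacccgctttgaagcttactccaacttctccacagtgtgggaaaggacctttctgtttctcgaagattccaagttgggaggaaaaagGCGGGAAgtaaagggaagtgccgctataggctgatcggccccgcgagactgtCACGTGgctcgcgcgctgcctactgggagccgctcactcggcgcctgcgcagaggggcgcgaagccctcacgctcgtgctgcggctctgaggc
Sycp3: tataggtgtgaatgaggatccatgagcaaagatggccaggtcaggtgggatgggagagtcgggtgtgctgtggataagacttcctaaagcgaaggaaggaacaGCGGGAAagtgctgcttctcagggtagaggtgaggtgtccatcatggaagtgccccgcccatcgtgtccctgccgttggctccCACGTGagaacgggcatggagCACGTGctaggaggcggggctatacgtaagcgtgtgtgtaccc
Hormad1: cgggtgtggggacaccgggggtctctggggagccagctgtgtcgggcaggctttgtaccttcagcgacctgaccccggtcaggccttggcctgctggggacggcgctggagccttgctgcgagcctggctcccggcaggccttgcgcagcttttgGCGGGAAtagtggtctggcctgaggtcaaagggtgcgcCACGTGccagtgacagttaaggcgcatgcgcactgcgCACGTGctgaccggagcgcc
Zfp42: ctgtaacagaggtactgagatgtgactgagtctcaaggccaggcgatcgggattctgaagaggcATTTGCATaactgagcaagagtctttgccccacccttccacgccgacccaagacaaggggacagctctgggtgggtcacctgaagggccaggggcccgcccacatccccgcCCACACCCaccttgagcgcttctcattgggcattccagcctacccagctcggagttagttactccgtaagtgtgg
2410137M14Rik: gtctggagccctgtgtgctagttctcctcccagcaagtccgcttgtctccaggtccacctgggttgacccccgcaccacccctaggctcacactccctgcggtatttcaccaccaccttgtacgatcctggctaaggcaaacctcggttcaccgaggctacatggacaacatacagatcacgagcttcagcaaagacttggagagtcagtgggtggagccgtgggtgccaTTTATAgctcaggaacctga

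The 4 libraries were of similar depth, with 12312349 to 13146349 reads in calls, of which 3.92% to 4.39% fell in promoter windows. A tested promoter held a median of 31, 28, 31 and 28 reads in pre-iPSC replicate 1, pre-iPSC replicate 2, iPSC replicate 1 and iPSC replicate 2. An average 2001-bp stretch of the genome held 9.28 to 9.91. The standard error of a log2 change had a median of 0.295, which is a 1.23-fold ratio, so changes well below 2-fold at single promoters were not detectable with these libraries. What parts depth and the spread between libraries had in this error was not tested. Across promoters, Pearson's r was 0.818 between the pre-iPSC libraries and 0.794 between the iPSC libraries, and 0.726 to 0.790 between the cell types. In the H3 libraries the first replicates stood apart, with 3.13% of reads in promoter windows in pre-iPSC replicate 1 and 2.32% in iPSC replicate 1 against 1.21% and 1.35% in the second replicates. Of the marker lists, the summed FPKM of 17 fibroblast genes was 5210 to 5280 in MEFs and 153.2 to 439.7 in the pre-iPSC and iPSC libraries, with none at 0, and 0 of the 17 passed the expression test between them. The 6 pluripotency markers summed to 401.7 and 3186 in pre-iPSCs, almost all Pou5f1, and to 1359 and 866.9 in iPSCs, and 5 of the 6 were called higher in iPSCs. RNA of the retroviral Pou5f1 cannot be told apart from that of the gene. Markers of stratified epithelium summed to 282.1 and 141.4 in pre-iPSCs against 17.46 and 21.66 in iPSCs, and those of blood and endothelium to at most 1.473 in any of the 4. What part such cells, or MEFs of the feeder layer, had in the H3K4me3 values was not tested.

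Between pre-iPSCs and iPSCs, few single promoters passed the test, and those that did differed 2.28-fold or more. With edgeR's quasi-likelihood test and Benjamini-Hochberg adjustment over all tested promoters, 5 promoters rose in iPSCs (0.0283% of those tested) and 4 fell (0.0227%). An unadjusted p below 0.05 was reached by 1586 (8.99%), of which 913 were higher and 673 lower. Both iPSC libraries lay above both pre-iPSC libraries at 3422 promoters (19.4%) and below both at 3458 (19.6%). At least 1.5-fold separated every iPSC library from every pre-iPSC library at 253 promoters in the direction of a gain (1.43%) and at 119 in the direction of a loss (0.674%), and at least 2-fold at 22 (0.125%) and 10 (0.0567%). Leaving out either pre-iPSC library or iPSC replicate 1 left 0 calls, with 1001 to 1380 promoters at an unadjusted p below 0.05, and leaving out iPSC replicate 2 gave 73. DESeq2 called 0, with 309 promoters at an unadjusted p below 0.05. Scaling by total reads in place of TMM factors turned the split of 5 higher and 4 lower into 18 and 3, and TMM factors taken from 10-kb bins into 17 and 3. The p-values measure the spread between libraries of a cell type, estimated over all 6 H3K4me3 libraries with MEFs included. That spread may be technical. With only the 4 pre-iPSC and iPSC libraries fitted, 0 promoters were called (1610 at an unadjusted p below 0.05). Fewer marked nucleosomes per cell cannot be told apart from fewer cells that carry the mark.

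**Figure D1:**
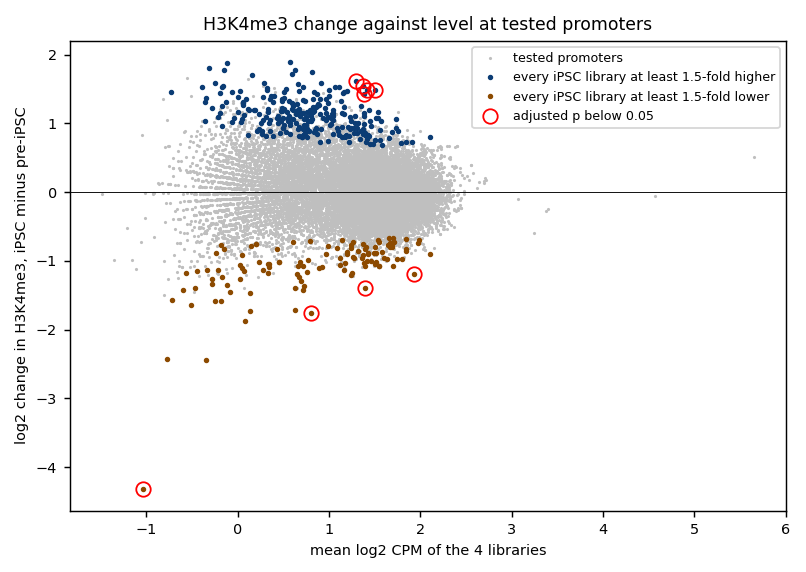
Log2 change in H3K4me3 (iPSC minus pre-iPSC) on the y axis against the mean log2 CPM of the 4 libraries on the x axis, 1 point per tested promoter, with the 253 shared gains and 119 shared losses of at least 1.5-fold coloured and the 9 calls ringed. Most of the coloured gains lie at low to middle levels, and 1 called loss lies far below the rest at the left, the promoter of 2310009B15Rik.

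The promoter of Nags, which makes the activator of the first urea cycle enzyme, held 17 and 18 reads in pre-iPSCs and 64 and 37 in iPSCs. Both iPSC libraries were above both pre-iPSC libraries, and the 2 MEF libraries lay between them with 30 and 27. It rose 2.81-fold (log2 change 1.49 ± 0.3 SE, edgeR adjusted p = 0.0479, window chr11:102006680-102008680). The promoter of Insl3, a peptide hormone of Leydig cells, lies within an intron of Jak3 and held 23 and 15 reads in pre-iPSCs and 68 and 40 in iPSCs. These did not overlap, and the log2 change was 1.48 ± 0.301 SE (edgeR adjusted p = 0.0479, chr8:74212151-74214151). The window of Il27ra, the receptor subunit for interleukin 27, also reaches into Rln3 and went from 25 and 11 to 58 and 40 reads (log2 change 1.42 ± 0.305 SE, edgeR adjusted p = 0.0494). At Cldn5, a tight-junction protein of endothelium, the pre-iPSC libraries held 24 and 9 reads and the iPSC libraries 70 and 33 (log2 change 1.61 ± 0.33 SE, edgeR adjusted p = 0.0479). Gm5878 went from 24 and 11 to 71 and 33 (log2 change 1.54 ± 0.325 SE, edgeR adjusted p = 0.0494). At all 5, iPSC replicate 1 was the highest library, and at the last 2 the lower iPSC library was, on the scaled counts, only 1.51-fold above the higher pre-iPSC library. Expression gave no matching call. Of the 5, only Insl3 reached the average of 0.5 FPKM over all RNA-seq libraries needed for a test. Nags, Il27ra, Cldn5 and Gm5878 stayed below 1 FPKM in all 4 RNA-seq libraries, and Insl3 had 8.54 and 23.9 FPKM in pre-iPSCs and 16.4 and 8.36 in iPSCs (limma adjusted p = 0.846).

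H3 reads at the same 5 windows were high in replicate 1 of pre-iPSCs and of iPSCs, where tested promoters had medians of 160 and 38 reads in the pre-iPSC and 109 and 45 in the iPSC libraries. At Nags they numbered 542 and 62 in pre-iPSCs against 161 and 35 in iPSCs, and at Cldn5 623 and 60 against 206 and 57. The H3 reads were 675 and 56 against 370 and 75 at Insl3, 396 and 69 against 289 and 60 at Il27ra, and 464 and 67 against 181 and 69 at Gm5878. The part of H3 in the H3K4me3 values was not tested. In the flanks from 1 to 3 kb away, Insl3 held 41 and 47 H3K4me3 reads in pre-iPSCs and 84 and 61 in iPSCs, whereas Gm5878 held 30 and 24 against 25 and 28, so the difference at Gm5878 was not seen in its flanks.

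Srpk2, a kinase of splicing factors, had the clearest called loss of a well covered promoter. Its window (chr5:23121389-23123389, − strand) held 29 and 38 reads in pre-iPSCs, 9 and 11 in iPSCs, and 53 and 40 in MEFs, and the iPSC level is about the genome average. It fell by 1.76 on the log2 scale (SE 0.366, edgeR adjusted p = 0.0485), and a correction for GC content, applied after seeing the data, moved the adjusted p to 0.0601. H3 differed in the other direction there, with 17 and 19 reads in pre-iPSCs and 71 and 54 in iPSCs, and expression was 8.06 and 11.5 FPKM against 6.63 and 8.65 (limma adjusted p = 0.697). Adamts6, a secreted metalloproteinase, fell from 45 and 49 reads to 13 and 23 (log2 change -1.4 ± 0.302 SE, edgeR adjusted p = 0.0494), and the MEF libraries were highest with 68 and 51. Its H3 reads were 30 and 35 in pre-iPSCs against 99 and 55 in iPSCs.

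The third of the losses was of a promoter higher in pre-iPSCs than in both other cell types. 2410137M14Rik had 60 and 68 reads in pre-iPSCs, 28 and 29 in iPSCs, and 17 and 18 in MEFs, with no overlap between the cell types (log2 change -1.19 ± 0.254 SE, edgeR adjusted p = 0.0494, chr17:37117182-37119182). Its RNA followed the same order, at 0 in both MEF libraries, 17.7 and 24 FPKM in pre-iPSCs and 0.963 and 0.487 in iPSCs (log2 change of FPKM + 1 -3.66, limma adjusted p = 0.00231). It was the only 1 of the 9 called promoters whose RNA was called as well, but of the gains only Insl3 could be tested in RNA. Of all genes tested in both, 3.54% were called higher in RNA and 4.7% lower. The remaining call, 2310009B15Rik, was too sparse for the 20-read minimum of the named promoters. It held 11 and 13 reads in pre-iPSCs and 0 and 1 in iPSCs, a ratio of iPSC to pre-iPSC reads of 0.041 with an exact 95% interval of 0.000998 to 0.252 that covers counting error only (edgeR adjusted p = 0.0479). Its H3 reads were 16 and 20 against 18 and 26, and its RNA was 22.9 and 30.9 FPKM against 5.85 and 9.04 (limma adjusted p = 0.0521).

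The list of the 12 largest shared gains was filled by 7 promoters that did not pass the test. Dnd1, an RNA-binding protein that germ cells need to survive, held 8 and 9 reads in pre-iPSCs and 31 and 29 in iPSCs (log2 difference 1.78 ± 0.407 SE, edgeR adjusted p = 0.0662). Its RNA rose from 0.414 and 0.158 FPKM to 7.93 and 3.98 (limma adjusted p = 0.00958). Pnma5, of the paraneoplastic antigen family on chromosome X, held 8 and 6 against 22 and 21 reads (edgeR adjusted p = 0.221), and its RNA rose from 0 in both libraries to 3.84 and 20.1 FPKM (limma adjusted p = 0.0127). These were the only 2 of the 12 with a called rise in RNA. Mip, the water channel of the lens, held 11 and 9 against 39 and 30 reads, and every iPSC library was at least 2.76-fold above every pre-iPSC library (edgeR adjusted p = 0.0561). Lyl1, a blood cell transcription factor whose promoter lies within an intron of Nfix, held 9 and 7 against 40 and 21 (edgeR adjusted p = 0.0613). The others were the testis RNA-binding protein Adad1 (11 and 9 against 31 and 28), the hypoxia form of a cytochrome c oxidase subunit Cox4i2 (14 and 12 against 38 and 30) and the odorant receptor Olfr1349 (9 and 8 against 32 and 25).

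Among the 12 largest shared losses, 9 did not pass the test. Anxa1, a phospholipid-binding protein of the inflammatory response, held 29 and 30 reads in pre-iPSCs and 6 and 12 in iPSCs, with 65 and 37 in MEFs (log2 difference -1.72 ± 0.394 SE, edgeR adjusted p = 0.0662). Its RNA was lower at each stage, from 697 and 861 FPKM in MEFs to 61.4 and 94.7 in pre-iPSCs and then to 22 and 28.8 in iPSCs, of which the last step was called (limma adjusted p = 0.0438). Tbx15, a T-box factor of limb and skeletal mesenchyme, held 56 and 48 against 24 and 26 reads (edgeR adjusted p = 0.139), and its RNA fell from 44.7 and 21.1 FPKM to 1.22 and 2.27 (limma adjusted p = 0.00485). Ift57, a part of the transport machinery of cilia, held 47 and 43 against 24 and 20 reads, while Fuz, a planar polarity protein that cilia need, 47 and 46 against 23 and 22. Zkscan3, a zinc finger repressor, held 38 and 34 against 17 and 16. Cryl1, Zfand6, 1110012L19Rik and the kinetochore gene Cenpq, whose window overlaps that of Mut, had likewise no overlap between the cell types. None of these 7 had a called change in RNA, where 3.54% of all genes tested in both were called higher and 4.7% lower.

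**Figure D2:**
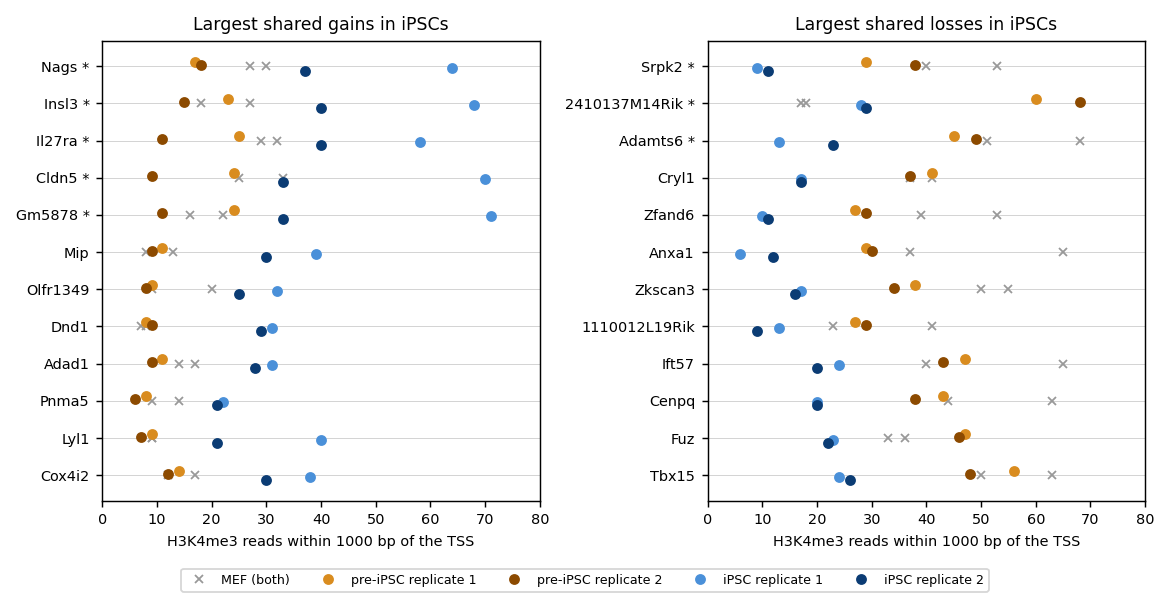
H3K4me3 reads within 1000 bp of the TSS (x axis) at the 12 promoters with the largest shared gain and the 12 with the largest shared loss, 1 point per library and an asterisk for those that passed the test. In the left panel both iPSC libraries lie to the right of both pre-iPSC libraries, with MEFs mostly near pre-iPSCs, and in the right panel iPSC counts lie below the pre-iPSC counts while MEFs are mostly at or above them, except at 2410137M14Rik.

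The pluripotency genes, many of which rose steeply in RNA, showed small median differences in H3K4me3. None of 22 pluripotency transcription factors or 30 other pluripotency genes passed the H3K4me3 test in either direction, with 2 and 5 at an unadjusted edgeR p below 0.05, all higher (913 of all 17645 were higher and 673 lower). Their median log2 differences were 0.19 and 0.18, against -0.01 over all tested promoters. With 1 library left out, the first ran from 0.08 (without iPSC replicate 1) to 0.31 (without iPSC replicate 2) and the second from 0.15 (without iPSC replicate 2) to 0.31 (without pre-iPSC replicate 1). Both iPSC libraries were above both pre-iPSC libraries for 6 of the 22 (27.3%) and 10 of the 30 (33.3%), and below for 2 and 1, where all tested promoters had 19.4% above and 19.6% below. Median reads, in the order of libraries given above, were 30.5, 26.5, 41.5 and 29.5 for the 22 and 25.5, 25, 29 and 30.5 for the 30. The genome average of 9.28 to 9.91 was not subtracted, and its part in the size of these differences was not tested. In RNA, limma called 10 of the 22 higher and 1 lower, and 20 of the 30 higher and 1 lower, where 3.91% of all genes tested were higher and 4.71% lower. The 1069 expression calls fell to 87 without iPSC replicate 2 and to 179 without replicate 1, and rose to 2281 and 2203 without MEF replicate 2 or 1. DESeq2 called none of these promoters either.

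Nanog, a core factor of the network, held 30 and 20 H3K4me3 reads in pre-iPSCs and exactly the same numbers in iPSCs (log2 difference -0.02 ± 0.331 SE, edgeR adjusted p = 0.993), while its RNA rose from 0.519 and 0 FPKM to 49.5 and 73.6 (limma adjusted p = 0.00101). Zfp42 (Rex1), a zinc finger marker of the ground state, held 12 and 13 reads in pre-iPSCs, 35 and 20 in iPSCs, and 14 and 7 in MEFs. The 2 cell types compared did not overlap, but the difference did not pass (1.1 ± 0.388 SE, edgeR adjusted p = 0.351). Its RNA went from 0 and 0.0837 to 56 and 63.9 FPKM (limma adjusted p = 0.000487). Prdm14, a repressor of differentiation genes, held 25 and 16 against 42 and 33 reads. Esrrb, an orphan nuclear receptor, held 16 and 15 against 19 and 28 (edgeR adjusted p = 0.693), with RNA at 0.0188 and 0.0335 FPKM in pre-iPSCs and 52.5 in each iPSC library. Dppa4 overlapped between the cell types (20 and 18 against 35 and 15), while Dppa3 held 23 and 11 against 26 and 22, and both were called higher in RNA.

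Of the reprogramming factors, Klf4 held 33 and 31 against 45 and 29 reads, and Sox2 53 and 39 against 78 and 30, with overlap at both. Klf4 RNA fell from 674 and 782 FPKM in pre-iPSCs to 99.6 and 105 in iPSCs (limma adjusted p = 0.00625). RNA of the gene and of the retroviral Klf4 cannot be told apart in these values. Pou5f1 had 325 and 241 H3K4me3 reads in pre-iPSCs and 293 and 255 in iPSCs, against 110 and 3 in MEFs, and H3 reads of 3159 and 591 against 1092 and 406, where tested promoters had the H3 medians given above. Reads of the gene, of the retroviral factors and of copies of the Oct4-GFP transgene cannot be told apart there. Utf1, a chromatin protein of stem cells, held 31 and 26 H3K4me3 reads against 36 and 22 and fell in H3K27me3, from 21 and 14 reads to 3 and 4 (log2 change -2.33, edgeR adjusted p = 0.0147), as its RNA rose from 23.2 and 1.67 to 544 and 220 FPKM. With DESeq2, 0 promoters were called in H3K27me3. The median H3K27me3 difference was -0.44 over 17 tested pluripotency factors and -0.8 over 24 other pluripotency genes, against -0.01 over all 10185 tested. Spp1, a secreted phosphoprotein, was the only member of both pluripotency lists at least 1.5-fold apart between every pair of libraries (9 and 7 against 21 and 22, edgeR adjusted p = 0.256), and its RNA did not pass.

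Germline genes formed the group with the largest share of promoters higher in iPSCs among the lists of 50 or more. The smaller list of 20 endoderm factors had a larger share (55%). Of 53 listed, 51 could be tested, and both iPSC libraries were above both pre-iPSC libraries at 25 (49%) and below at 4 (7.84%), where all tested promoters had 19.4% and 19.6%. The median log2 difference was 0.44. None was called by edgeR or DESeq2 on its own, with 18 higher and 2 lower at an unadjusted edgeR p below 0.05 (913 and 673 of all 17645). Between every pair of libraries, 4 were at least 1.5-fold higher (7.84%, against 1.43% of all) and 1 at least 1.5-fold lower (1.96%, against 0.674%). In RNA, limma called 34 of 37 higher and none lower, beside 3.91% and 4.71% of all genes tested, and the median change was 2.62 on the log2 scale. Only genes averaging 0.5 FPKM over all RNA-seq libraries were tested, and those silent in MEFs and pre-iPSCs pass only through iPSCs. A high share of rises is thus partly set by this filter. H3K27me3 had a median difference of 0.02 at the same promoters. In the flanks from 1 to 3 kb the summed H3K4me3 differed by 0.1 on the log2 scale, against -0.06 over all tested promoters. The list median stayed between 0.35 and 0.79 under every alternative run.

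Stk31, a kinase of the testis, held 6 and 4 reads in pre-iPSCs and 19 and 11 in iPSCs, with 6 and 9 in MEFs (log2 difference 1.54 ± 0.524 SE, edgeR adjusted p = 0.326), and its RNA went from 0 in both to 1.14 and 2.08 FPKM (limma adjusted p = 0.0291). Tex12, of the central element of the synaptonemal complex, held 13 and 4 against 32 and 18 (edgeR adjusted p = 0.23), and Sycp3, of its lateral element, 14 and 5 against 29 and 16 (edgeR adjusted p = 0.373). Dmrtb1, a regulator of the entry into meiosis in the male, held 13 and 6 against 27 and 18. At each of these the iPSC libraries were above the pre-iPSC libraries and the MEF libraries were near the latter. Stra8, which starts the meiotic programme, and Sohlh2, a transcription factor of early germ cells, were chosen after their values were seen. They held 14 and 8 against 26 and 25, and 12 and 9 against 28 and 21, and their RNA rose from at most 0.12 FPKM to 77.1 and 80.7 for Stra8 and from 0 to 25.7 and 11 for Sohlh2.

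Not all members followed. Ddx4 (Vasa), a helicase of germ cells, held 21 and 17 against 21 and 25 reads (log2 difference 0.26 ± 0.361 SE, edgeR adjusted p = 0.895), although its RNA rose from 0.0585 and 0 to 6.13 and 4.64 FPKM (limma adjusted p = 0.00335). Dazl, another germ cell RNA-binding protein, held 20 and 15 against 20 and 11. Dmrt1, a testis determination factor, was lower in both iPSC libraries, 45 and 33 against 19 and 27 reads (edgeR adjusted p = 0.408), while its RNA rose from 0.147 and 0 to 10.3 and 14.6 FPKM (limma adjusted p = 0.00181). Tdrd7, a Tudor protein of germ granules, was lower as well (21 and 16 against 11 and 6), with RNA at about 1 FPKM in both cell types. Dazl, Dmrt1 and Tdrd7 were named after their values were seen.

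The upstream sequences printed above show the letters in question. CACGTG stood within 250 bases upstream of the TSS in 17 of 53 germline genes (32.1%), against 1393 of all 20156 promoters (6.91%) and 11 of 39 Hox genes (28.2%), and TTCCCGC in 14 (26.4%) against 1031 of all (5.12%), with both strands searched. Either was found in 25 (47.2%), against 2337 of all (11.6%). In Hormad1, CACGTG began 57 and 20 bases upstream of the TSS and TTCCCGC 95, and in Stk31 CACGTG began 120 bases upstream. The 23 tested germline promoters with either sequence had a median log2 H3K4me3 difference of 0.71, with both iPSC libraries above at 14 (60.9%) and below at 1. The 28 without had 0.36, with 11 above (39.3%) and 3 below, beside 19.4% and 19.6% of all tested promoters. The difference between these groups was not tested, and a match of letters is not a site in use. The octamer ATGCAAAT, in 326 of all promoters (1.62%), stood in 2 of the 22 pluripotency transcription factors, and GGGTGTGG, in 678 (3.36%), in 1.

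**Figure D3:**
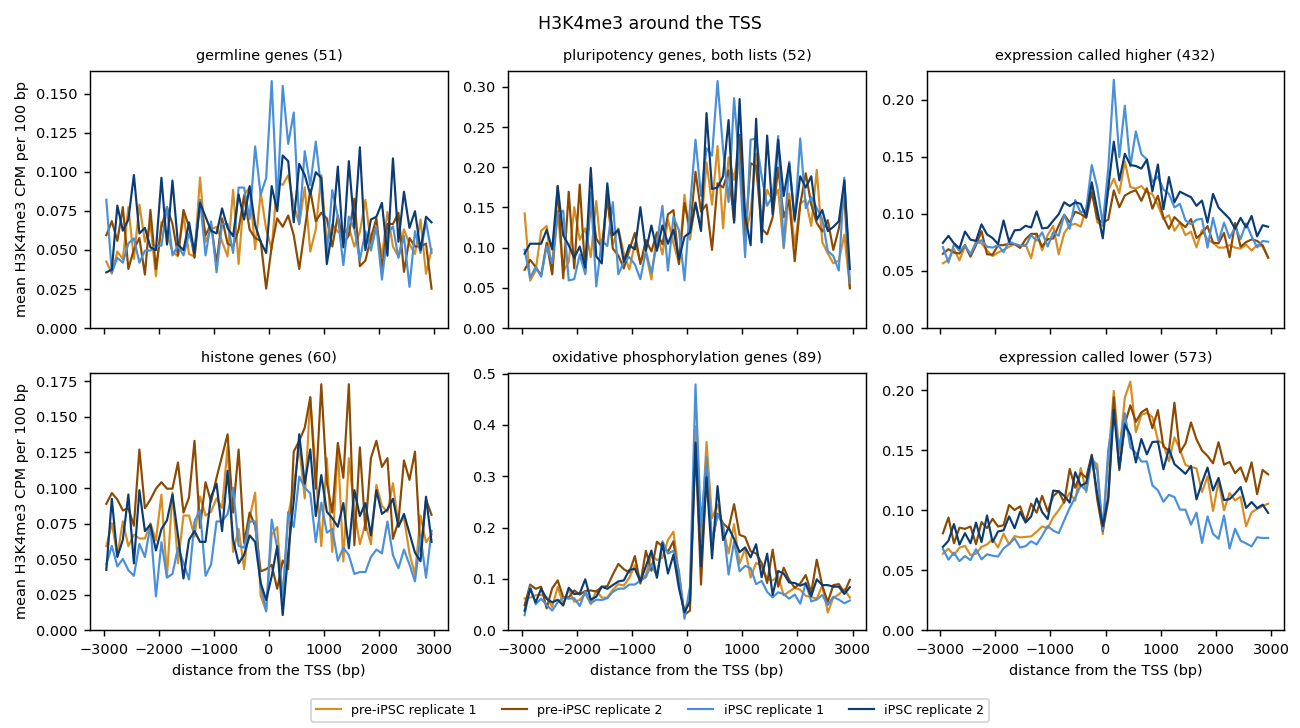
Mean H3K4me3 in CPM (reads scaled to library size) per 100 bp (y axis) against distance from the TSS in bp (x axis) for 6 groups of tested promoters, 1 line per library. At germline genes the mean from 0 to 500 bp was 0.0825 and 0.0638 in pre-iPSCs against 0.13 and 0.0902 in iPSCs, and at genes called higher in RNA 0.128 and 0.111 against 0.169 and 0.142, while the lines of the cell types cross at oxidative phosphorylation genes. Over all tested promoters that mean was 0.155 and 0.138 in pre-iPSCs against 0.169 and 0.145 in iPSCs.

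Endoderm and mesoderm transcription factors were also higher in iPSCs more often than lower. Of 20 endoderm factors, 11 (55%) had both iPSC libraries above both pre-iPSC libraries and 1 below, with a median log2 difference of 0.37, where all tested promoters had 19.4%, 19.6% and -0.01. Of 31 mesoderm factors, 12 (38.7%) were above and 2 below, with a median of 0.27 that ran from 0.2 (without iPSC replicate 1) to 0.44 (without pre-iPSC replicate 1). None of either list was called by edgeR or DESeq2, and at an unadjusted edgeR p below 0.05 there were 5 endoderm factors higher and 0 lower, and 5 mesoderm factors higher and 1 lower (913 and 673 of all 17645). Pdx1, the pancreas regulator, held 17 and 18 reads in pre-iPSCs against 39 and 27 in iPSCs (log2 difference 0.88 ± 0.334 SE, edgeR adjusted p = 0.379). Tcf21, a factor of visceral mesoderm, went from 13 and 10 to 43 and 28 reads (1.59 ± 0.367 SE, edgeR adjusted p = 0.0662), Myog, a muscle regulator, from 12 and 6 to 25 and 25, and Hand1, of heart and trophoblast, from 25 and 19 to 59 and 36. At all 4 the cell types did not overlap, and RNA was below 1 FPKM in all 4 libraries. H3K27me3 medians were 0.06 for both lists. Hhex, a factor of anterior endoderm, had RNA that rose from 0.67 and 0.298 to 3.57 and 2.55 FPKM (limma adjusted p = 0.0291). It held 39 and 21 H3K4me3 reads against 63 and 44 (edgeR adjusted p = 0.277), and its H3K27me3 fell from 15 and 29 reads to 6 and 6 (log2 change -1.91, edgeR adjusted p = 0.0191), while DESeq2 called 0 promoters in H3K27me3.

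Neural transcription factors stood near the level of all promoters, with 9 of 47 above, 8 below (17%) and a median of 0.01, beside 19.4%, 19.6% and -0.01 for all. Gsx2, a factor of the ventral forebrain, was an exception with 22 in each pre-iPSC library and 54 and 40 in iPSCs (edgeR adjusted p = 0.165). The 39 Hox genes had 9 above (23.1%), 1 below and a median of 0.04, which became 0.14 without pre-iPSC replicate 2, and in H3K27me3 their median was 0.63 with 7 called higher and 0 lower, where 0.668% of all tested promoters were called higher and 0.137% lower. DESeq2 called 0 promoters in H3K27me3. With 1 library left out, the H3K27me3 calls over all promoters ranged from 9 (without iPSC replicate 1) to 135 (without MEF replicate 2). Hoxd12 held 13 and 23 H3K4me3 reads in pre-iPSCs and 46 and 34 in iPSCs (edgeR adjusted p = 0.221). Imprinted genes had 9 of 24 above (37.5%) and 0 below, with a median of 0.12, which became 0.28 without pre-iPSC replicate 1. The largest differences were at Dlk1, a ligand-like protein of the Notch family (26 and 17 against 44 and 27), and the zinc finger gene Plagl1 (28 and 25 against 37 and 46). The blood and endothelium list had 7 of 20 above (35%), 2 below and a median of 0.28, which became -0.03 without iPSC replicate 2. Of its members, Etv2, which starts the endothelial lineage, held 25 and 18 against 44 and 35 reads, and Tek, a receptor of endothelium, 39 and 32 against 21 and 24, with Tek RNA falling from 12.7 and 3.94 to 0.715 and 0.921 FPKM (limma adjusted p = 0.0295).

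**Figure D4:**
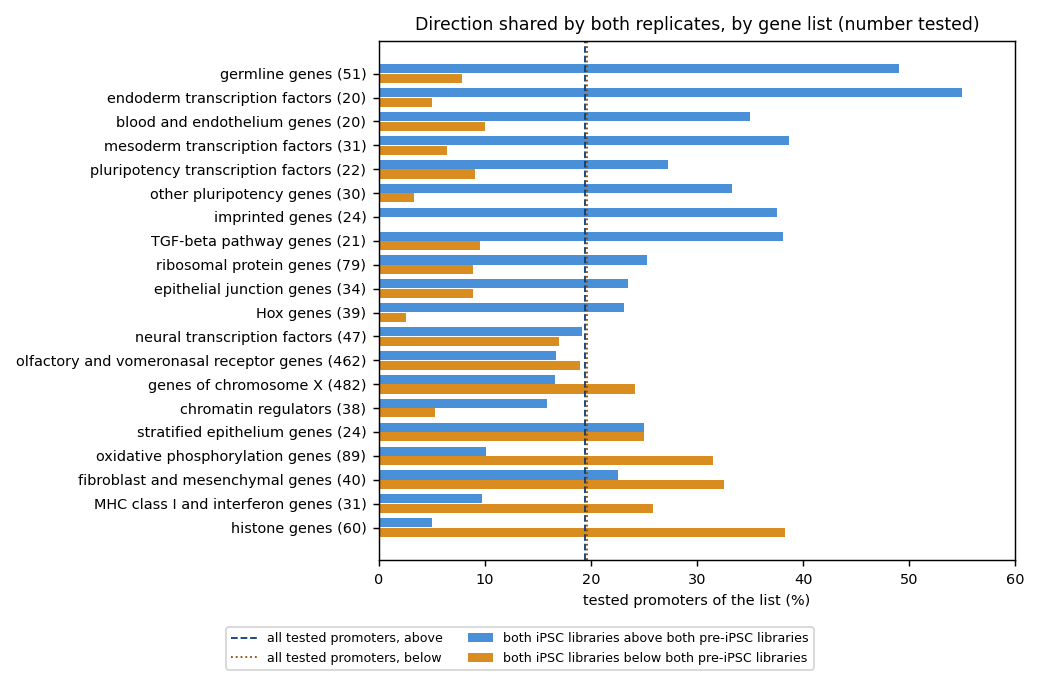
Share of each list's tested promoters (x axis, %) at which both iPSC libraries lay above (blue) or below (orange) both pre-iPSC libraries, with vertical lines at the shares of all tested promoters (19.4% and 19.6%), and the lists with 1 and 4 tested members left out. Endoderm factors (55%) and germline genes (49%) have the longest blue bars, and histone genes (38.3%) have the longest orange bar.

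Histone and oxidative phosphorylation genes lay lower in iPSCs more often than higher. At 60 tested histone genes both iPSC libraries were below both pre-iPSC libraries at 23 (38.3%) and above at 3 (5%), beside 19.6% and 19.4% of all tested promoters. The median log2 difference was -0.35, ran from -0.43 to -0.04 over the alternatives, and was -0.15 without pre-iPSC replicate 2. Their flanks differed by -0.48, against -0.06 over all tested promoters. The mean over 0 to 500 bp was 0.0685 and 0.0585 CPM per 100 bp in pre-iPSCs against 0.063 and 0.0506 in iPSCs, where all tested promoters had 0.155 and 0.138 against 0.169 and 0.145. None was called by edgeR or DESeq2, and 5 were lower and 0 higher at an unadjusted edgeR p below 0.05 (673 and 913 of all 17645). Hist1h2bl held 26 and 27 against 13 and 11 reads (edgeR adjusted p = 0.295), and Hist1h4j 22 and 23 against 15 and 9 (edgeR adjusted p = 0.463). These genes are near-identical copies in clusters, many windows overlap, and uniquely placed reads can miss them, so single values are uncertain. In RNA, limma called 0 of 43 higher and 1 lower, beside 3.91% and 4.71% of all genes tested. Most histone transcripts are known to lack a poly(A) tail. Of 67 histone genes, 36 (53.7%) held TATAAA and 16 (23.9%) the octamer ATGCAAAT within 250 bases upstream, against 11.7% and 1.62% of all promoters.

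Oxidative phosphorylation genes had 28 of 89 promoters below (31.5%) and 9 above (10.1%), beside 19.6% and 19.4% of all tested promoters. The median was -0.1, with -0.13 to -0.04 over the alternatives and -0.06 without pre-iPSC replicate 1. The 20% of promoters with the most reads leaned the same way, with 22.8% below, 13.7% above and a median of -0.04. From 0 to 500 bp the list's mean was 0.245 and 0.193 CPM per 100 bp in pre-iPSCs against 0.255 and 0.197 in iPSCs. All tested promoters had 0.155 and 0.138 against 0.169 and 0.145. Cox5b, a subunit of cytochrome c oxidase, held 55 and 38 against 22 and 30 reads (log2 difference -0.85 ± 0.278 SE, edgeR adjusted p = 0.284), and Atp5g2, of the ATP synthase ring, 40 and 28 against 20 and 20 (edgeR adjusted p = 0.406). Their RNA did not pass. Cox4i2, described above, is the 1 member of this list at least 1.5-fold apart between every pair of libraries, and it was higher in iPSCs. In this list limma called 2 of 89 genes higher and 0 lower, beside 3.91% and 4.71% of all genes tested. Ribosomal protein genes had 20 of 79 above (25.3%) and 7 below, with a median of 0.06 that was -0.02 without iPSC replicate 1 and 0.19 without iPSC replicate 2. Rpl39l, a copy used in the testis, held 20 and 14 against 37 and 22 reads, and its RNA rose from 0.741 and 0.993 to 42.2 and 32.2 FPKM (limma adjusted p = 0.00181). Actb held 41 and 30 against 41 and 36, and Gapdh 52 and 45 against 51 and 40.

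Fibroblast and mesenchymal genes had 13 of 40 below (32.5%) and 9 above (22.5%), beside 19.6% and 19.4% of all tested promoters. The median was -0.11, ran from -0.17 (without pre-iPSC replicate 1) to 0 (without pre-iPSC replicate 2), and became 0.08 with windows of 2000 bp to each side. S100a4, a calcium-binding protein of fibroblasts, showed the largest difference. It held 43 and 35 H3K4me3 reads in pre-iPSCs and 14 and 21 in iPSCs (log2 difference -1.17 ± 0.327 SE, edgeR adjusted p = 0.207), its H3K27me3 rose from 8 and 3 to 35 and 17 reads (log2 change 2.16, edgeR adjusted p = 0.00816) and its RNA fell from 149 and 431 to 7.42 and 87.2 FPKM (limma adjusted p = 0.0155). For H3K27me3, DESeq2 called 0 promoters. Col5a2, a fibrillar collagen, held 37 and 42 against 20 and 28 reads, with 65 and 54 in MEFs. Col1a2, of type I collagen, went the other way, with 22 and 12 in pre-iPSCs, 34 in each iPSC library, and 66 and 54 in MEFs (edgeR adjusted p = 0.276). Inhba, a subunit of activin, held 16 and 10 against 13 and 11 reads, and Vcam1, an adhesion molecule, 10 and 14 against 8 and 14, both overlapping. In MEFs those held 71 and 29, and 43 and 36. Summed over the fibroblast markers, 16 of 17 tested, H3K4me3 reads were 459 and 439 in pre-iPSCs against 441 and 447 in iPSCs.

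The MHC class I and interferon list had 8 of 31 below (25.8%) and 3 above (9.68%), beside 19.6% and 19.4% of all tested promoters. Ifitm3, an antiviral membrane protein, held 49 and 41 against 15 and 33 reads (edgeR adjusted p = 0.276). Genes of the TGF-beta pathway had 8 of 21 above (38.1%) and 2 below. For Ltbp1, which anchors latent TGF-beta, H3K4me3 was 22 and 28 against 51 and 29 reads while RNA fell from 31.3 and 24.9 to 2.95 and 5.29 FPKM (limma adjusted p = 0.0163). Stratified epithelium genes had 6 of 24 above and 6 below, and limma called 10 of 14 lower in RNA, beside 4.71% of all genes tested. Only these 14 of the 26 listed averaged 0.5 FPKM over all RNA-seq libraries. A gene silent in MEFs and iPSCs passes only through pre-iPSCs, so a high share of falls is partly set by this filter. Epithelial junction genes had 8 of 34 above (23.5%) and 3 below. Krt18, a keratin of simple epithelia, held 14 and 8 against 26 and 25 reads and rose in RNA from 1.06 and 0.837 to 5.33 and 9.64 FPKM (limma adjusted p = 0.0206). Cldn6, a claudin of early embryos, held 20 and 12 against 40 and 27 and rose in RNA from 0.287 and 0 to 15.4 and 26.2 FPKM (limma adjusted p = 0.00178). Chromatin regulators had 6 of 38 above (15.8%) and 2 below, and olfactory and vomeronasal receptors, of which 462 of 1428 could be tested, had 77 above (16.7%) and 88 below (19%). On chromosome X, 80 of 482 were above (16.6%) and 116 below (24.1%), and on chromosome Y 0 of 4 were above and 3 below. The single testable gene of 13 of the 2-cell stage, Dub1a, held 12 and 5 against 11 and 13. None of the members of the lists in this paragraph was called by edgeR or DESeq2.

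Promoters and RNA were then compared over all genes tested in both. At the 432 genes whose RNA was called higher in iPSCs (3.54% of 12190), the median log2 H3K4me3 difference was 0.25, 73.1% of differences were above 0, and both iPSC libraries were above both pre-iPSC libraries at 177 (41%) and below at 32 (7.41%). For the 573 genes called lower in RNA (4.7%), the median was -0.12, with 49 above (8.55%) and 161 below (28.1%). Among the 11185 genes not called, the median was -0.06, with 14.6% above and 23.3% below. H3K27me3, taken over all 485 genes called higher in RNA and 584 called lower, went the opposite way. Its median was -0.4 at those higher in RNA (5 of 367 tested called lower, 1 higher). At those lower in RNA it was 0.74 (39 of 405 tested called higher, 0 lower). Of all tested promoters, 0.668% were called higher and 0.137% lower. The 82 H3K27me3 calls became 0 with DESeq2, which left 249 at an unadjusted p below 0.05, and 39 with the replicate number as a block. For H3K4me3, the 10th and 90th percentiles of the difference at genes higher in RNA were -0.23 and 0.88.

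**Figure D5:**
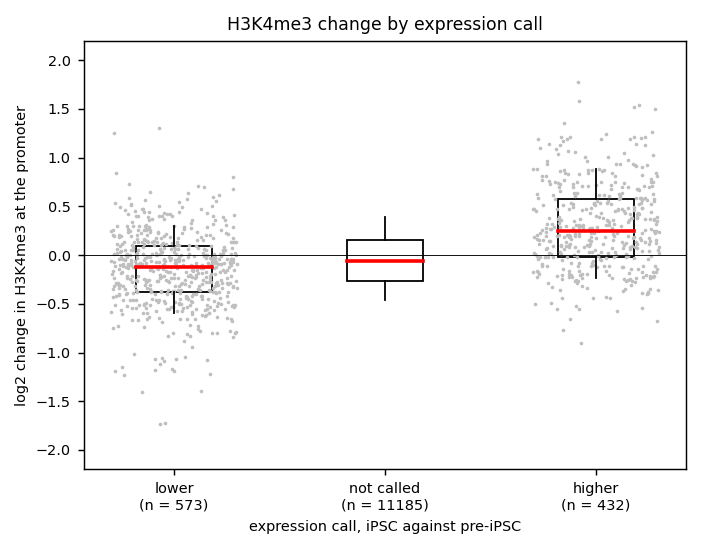
Log2 change in H3K4me3 (y axis) for genes whose RNA was called lower, not called or called higher in iPSCs (x axis), with the box at the quartiles, the red line at the median, whiskers at the 10th and 90th percentiles, and points for the called genes. Medians are -0.12, -0.06 and 0.25, and the boxes overlap.

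Of the 253 shared gains of at least 1.5-fold, 96 had RNA that could be tested, and 27 of these (28.1%) were called higher and 2 (2.08%) lower, beside 3.54% and 4.7% of all promoters with testable RNA. The other 157 (62.1%) were below the minimum of 0.5 FPKM, against 30.9% of all tested promoters. That minimum is on the average of all RNA-seq libraries, so a gene silent in MEFs and pre-iPSCs passes only through iPSCs. Of the 119 shared losses, 86 had testable RNA, with 0 called higher and 13 lower (15.1%). The gains had a median CpG observed-to-expected ratio of 0.34 and the losses 0.45, against 0.55 over all, and their median GC contents were 53.2% and 47.9%, against 52.9%. Median reads were 14, 11, 28 and 25 at the gains and 33, 29, 16 and 15 at the losses, in the order of libraries given above. The genome average was 9.28 to 9.91. These promoters were chosen on the same libraries, which favours low counts in the lower cell type. From the 20% of promoters with the lowest mean reads to the 20% with the highest, shared gains numbered 87, 107, 38, 14 and 7 and shared losses 42, 29, 21, 18 and 9, and the median standard error went from 0.46 to 0.26.

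The following examples of shared change in both readouts were chosen after their values were seen. Triml2, of the tripartite motif family, held 12 and 6 against 29 and 23 H3K4me3 reads, and its RNA rose from 0 in both to 22.9 and 19.9 FPKM (limma adjusted p = 0.00101). Apoc1, an apolipoprotein, held 24 and 10 against 41 and 35, and its RNA rose from 2.89 and 2.02 to 38.9 and 55.9 FPKM (limma adjusted p = 0.00287). Pnldc1, the nuclease that trims piRNAs, held 8 and 8 against 21 and 21, with RNA from 0.353 and 0 to 11.7 and 5.98 FPKM (limma adjusted p = 0.0035). On the side of loss, Capn2, a calcium-dependent protease, held 62 and 45 against 34 and 27 reads and fell in RNA from 71.4 and 66.1 to 6.44 and 14.4 FPKM (limma adjusted p = 0.0134). Cish, an inhibitor of cytokine signalling, held 54 and 40 against 23 and 22 and fell from 10.2 and 14.4 to 1.73 and 1.46 FPKM (limma adjusted p = 0.0224). Slc38a5, an amino acid transporter on chromosome X, had the steepest RNA change of these, from 553 and 369 FPKM to 0.61 and 0.296 (limma adjusted p = 0.000484), beside 26 and 24 against 8 and 14 H3K4me3 reads. None of these 6 passed the H3K4me3 test (edgeR adjusted p 0.154 to 0.317). The 2 shared gains with RNA called lower were B3gnt2, a glycosyltransferase whose window reaches into Commd1 (38 and 35 against 73 and 57 reads), and the POU factor Pou6f1 (13 and 8 against 32 and 19).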

How the data were processed

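H3K4me3 mononucleosome ChIP-seq files hold nucleosome calls with read counts per call, as deposited: the authors aligned reads with Bowtie 1.0.1 to mm9, kept unique reads with capped duplicates, shifted them by 73 bp and called nucleosomes with GeneTrack. Reads outside calls are not in these files. The deposited expression values are FPKM (TopHat2 2.0.4, Cufflinks 2.0.2, per the submitters' processing notes), in 2 tables normalized separately, so the table was a term in the expression fit. The labels put samples in groups. MEFs were digested with another MNase amount and time than the other cells.

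Reads of calls with their dyad (start + 73) within 1000 bp of the TSS were summed per promoter. Library size was all reads in calls, 12007350 to 13146349. Counts of the 6 H3K4me3 libraries were fitted with edgeR 4.0.16 (R 4.3.3; TMM factors, filterByExpr, glmQLFit and glmQLFTest), with the contrast iPSC minus pre-iPSC, and called at a Benjamini-Hochberg adjusted p below 0.05 over all tested promoters. H3K27me3 was fitted likewise over its 10185 tested promoters. Expression was tested with limma 3.58.1 on log2(FPKM + 1), where the average over libraries reached 0.5 FPKM, and called at an adjusted p below 0.05 and an absolute log2 change of at least 1, a scale that understates changes of low genes. The standard error of a log2 change was taken as the change divided by the square root of its F statistic. DESeq2 1.42.0 was an alternative. Scripts were tested on simulated data. H3 counts are given beside results only, and H3K9me3 was not used.

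Named promoters were the 12 largest shared gains and losses (called promoters first, ranked by the smallest of the 4 log2 ratios between TMM-scaled libraries with 2 reads added, 1 per group of overlapping windows, at least 20 reads in each library of the higher cell type), up to 4 members with the largest change per list, and Pou5f1, Nanog, Sox2, Klf4, Esrrb, Zfp42, Dppa3, Dppa4, Ddx4, Inhba, Vcam1, Gapdh and Actb. The members, lists and motifs were chosen with earlier results of these data known. Sequences and annotation came from NCBIM37, the assembly of mm9, with GENCODE M1. Alternatives covered the window, the minimum of reads per call, scaling, filters, tool, samples fitted, a replicate block and each library left out.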

Additional observations from a re-analysis of the deposited data

How the results depend on the processing

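The 9 H3K4me3 calls became 0 with windows of 500 bp to each side (1063 promoters at an unadjusted p below 0.05), with an asymmetric window of 300 bp before and 600 bp after the TSS (1023), with calls of at least 2 reads (1450), with DESeq2 (309) and with only the 4 pre-iPSC and iPSC libraries in the fit (1610). They became 20 with factors from 10-kb bins (17 higher, 3 lower), 21 with total reads (18 and 3) and 20 without the filter. Windows of 2000 bp gave 11, and a GC correction, chosen after seeing the data, 10. Leaving out 1 library gave 0 to 73. It was 0 without pre-iPSC replicate 1, pre-iPSC replicate 2 or iPSC replicate 1, 14 without MEF replicate 1 and 73 without iPSC replicate 2. Each of the 9 was called in 7 to 11 of 19 alternatives. The 82 H3K27me3 calls became 48 without the filter, 0 with DESeq2 (249 at an unadjusted p below 0.05) and 9 to 135 with 1 library left out. They were 129 and 135 without either MEF library, 20 and 21 without either pre-iPSC library, and 9 and 43 without either iPSC library. The 1069 expression calls became 2350 with only the 4 libraries and 87 to 2281 with 1 left out. They were 179 and 87 without iPSC replicate 1 or 2, and 2203 and 2281 without MEF replicate 1 or 2. The cause was not tested.

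With the replicate number as a block, H3K4me3 calls were 10 and H3K27me3 calls 39. Without the table term, expression calls were 1124. The labels do not tie equal numbers to a shared origin, and the correlation of same-numbered deviations was 0.113 between pre-iPSCs and iPSCs, -0.0459 between MEFs and pre-iPSCs and 0.00382 between MEFs and iPSCs. Over the named promoters and these alternatives, 1825 values kept their call or moved by at most 1 SE, 175 uncalled values moved further, 85 lost a call, 35 gained one, and no called value reversed. Single promoters had a median standard error of 0.295, and the parts of depth and of the spread between libraries in it were not tested.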
